A study of Mus musculus with 3 samples.

Results

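The mouse genes of the Fc gamma receptors were described here: Fcgr1, Fcgr2b, Fcgr3 and Fcgr4, which encode receptors for the constant part of immunoglobulin G, and Fcer1g, which encodes the signalling chain that the activating ones share. They were taken by gene symbol and are 5 of 55536 annotated genes in the tables and 5 of 22028 protein-coding genes. Fc gamma receptors let macrophages bind targets coated with antibody. The activating receptors, encoded by Fcgr1, Fcgr3 and Fcgr4, need the Fcer1g chain for surface expression and signal through the tyrosine-based activation motif it carries, which recruits the kinase Syk and starts phagocytosis and cytokine release. The receptor encoded by Fcgr2b has an inhibitory motif in its own tail, recruits the lipid phosphatase encoded by Inpp5d and restrains the activating receptors. The balance between activating and inhibitory receptors is known to set how strongly a macrophage responds to immune complexes.

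The RNA came from the chromatin fraction of C57BL/6J macrophages derived from bone marrow, which are primary phagocytes grown in culture from progenitors. The cells had been stimulated with lipid A, the part of bacterial lipopolysaccharide that activates TLR4, at 100 ng/ml for 120 min, and ribosomal RNA was depleted before total RNA was sequenced. There was 1 group, with 3 libraries that the labels number as biological replicates, and no untreated group was analysed here, so no effect of lipid A is given. They share a donor label, and separate cultures are not stated for them, so the spread between them, and any p-value based on it, may be technical. Replicate 1 was made from 1 µg of RNA, replicate 2 from 250 ng and replicate 3 from 500 ng, and this amount and the replicate cannot be told apart. RNA bound to chromatin includes nascent and unspliced transcripts, so a level is neither the amount of messenger RNA in the cytoplasm nor a transcription rate.

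The libraries held 19919358, 20430415 and 22023921 expected counts in replicates 1, 2 and 3, which are reads shared out by the authors among features. Of 12 macrophage markers, 11 had a mean of at least 1 TPM (a level scaled by transcript length and to a fixed total per library), with a mean of 250 TPM for Irf8 and 210 TPM for Msr1, while Cebpa had 0.86 TPM. None of 8 B cell markers and none of 8 neutrophil markers reached that level, and the B cell markers summed to at most 0.99 TPM in a library. Of 7 NK cell markers 1 did so (Klrk1, 1.60 TPM), and of 7 mast cell and basophil markers 1 (Kit, 1.17 TPM), with Fcer1a, the IgE-binding partner of Fcer1g, at 0 in the 3 libraries. Of 8 T cell markers 2, of 6 dendritic cell markers 0 and of 6 platelet markers 2 reached it, and the platelet markers summed to 9.18, 46.3 and 2.32 TPM in replicates 1, 2 and 3. In a further deposited transcript table, made from the reads without alignment and called the other quantifier here, 1 of the B cell (Ebf1, 2.14 TPM), 1 of the neutrophil (Cxcr2, 3.91 TPM), 1 of the dendritic cell, 3 of the T cell (Cd3d at 7.68 TPM among them) and 0 of the mast cell markers reached 1 TPM. Replicate 2 stood apart in the platelet markers and in other genes, with Lyz2 at 88.9, 873 and 39.0 TPM and mt-Co1 at 83.55, 1246 and 150 TPM in replicates 1, 2 and 3. In such bulk RNA, fewer cells expressing a gene and less RNA per cell cannot be told apart.

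Much of the signal at Fcgr2b and part of that at Fcer1g was assigned to isoforms annotated as retaining an intron. The places where Fcgr2b-205 and Fcer1g-202 run from exon into intron are shown here because the isoform results rest partly on them. That of Fcgr2b-207, the other isoform of Fcgr2b annotated in this way, is not shown. Each sequence reads 5′ to 3′ on the transcribed strand (minus, mm10), with the last 30 exon bases and the first 36 intron bases, and capitals mark the first 6 intron bases, the 5′ splice site left uncut. The Fcgr2b-205 boundary, from exon into intron 5 of 7, lies at chr1:170965666-170965731, and the Fcer1g-202 boundary, into intron 2 of 4, at chr1:171231141-171231206.
Fcgr2b intron 5 boundary: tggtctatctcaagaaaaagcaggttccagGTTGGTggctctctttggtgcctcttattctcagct
Fcer1g intron 2 boundary: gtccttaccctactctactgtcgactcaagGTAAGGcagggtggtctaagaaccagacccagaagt

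Fcgr2b and Fcgr3 are near copies over the part that encodes their extracellular domains, so reads from it could be assigned to either gene. Over 784 aligned coding bases they were identical at 83.9%, with a longest identical run of 129 nt, while the other pairs among the 4 receptors were 58.6% to 63.5% identical with runs of 9 to 14 nt. The stretches below, from chr1:170968007-170968126 and chr1:171057718-171057837 (minus strand, mm10), are 120 aligned coding bases of each gene, and capitals mark the 5 bases that differ.
Fcgr2b coding stretch: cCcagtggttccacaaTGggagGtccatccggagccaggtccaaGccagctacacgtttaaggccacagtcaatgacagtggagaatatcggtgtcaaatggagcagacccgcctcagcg
Fcgr3 coding stretch: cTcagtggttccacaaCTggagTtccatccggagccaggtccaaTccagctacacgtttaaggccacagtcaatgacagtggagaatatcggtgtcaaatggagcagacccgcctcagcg
Fcgr2b-201 and the coding isoform of Fcgr3 with the highest TPM shared 166 windows of 50 nt, or 12.8% of those of the latter. Fcgr2b-201 shared 397 of its 3495 windows with a transcript of any other gene, these 166 included. The deposited posterior SD of the gene count, which measures doubt in assigning reads, was at most 0.9 reads for Fcgr2b and Fcgr3 and 0 for Fcgr1, Fcgr4 and Fcer1g. No 50-nt window of Fcgr1, Fcgr4 or Fcer1g was found in a transcript of another gene.

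The inhibitory receptor gene held the highest level of the 5. Fcgr2b (ENSMUSG00000026656.15, chr1:170958617-170976547, minus strand) stood at 207.37, 336.88 and 389.81 TPM in replicates 1, 2 and 3, a mean of 311 ± 93.9 TPM (SD, n = 3). It ranked 68 among 22028 protein-coding genes, and rested on 5776 to 10431 expected counts per library. Replicate 1 was the lowest and replicate 3 the highest.

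The 3 activating receptor genes were lower. Fcgr3 (ENSMUSG00000059498.13, chr1:171051174-171064935, minus strand), the low-affinity activating receptor, stood at 20.02, 47.66 and 29.46 TPM in replicates 1, 2 and 3, a mean of 32.4 ± 14.0 TPM and rank 1498. Fcgr1 (ENSMUSG00000015947.10, chr3:96282909-96293969, minus strand), the high-affinity receptor and the only member away from chromosome 1, stood at 7.31, 20.65 and 19.2 TPM, a mean of 15.7 ± 7.32 TPM and rank 2797. Fcgr4 (ENSMUSG00000059089.4, chr1:171018920-171029761, plus strand), a receptor for IgG2a and IgG2b, stood at 5.57, 14.52 and 12.08 TPM, a mean of 10.7 ± 4.63 TPM and rank 3712. Replicate 1 was the lowest library for each of the 3 and replicate 2 the highest. The smallest count behind these levels was 137 expected counts, for Fcgr4 in replicate 1.

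The shared chain stood between. Fcer1g (ENSMUSG00000058715.11, chr1:171229572-171234365, minus strand) was at 129, 188.61 and 133.07 TPM in replicates 1, 2 and 3, a mean of 150 ± 33.3 TPM and rank 235, on 1006 to 1489 expected counts. Replicates 1 and 3 lay close together and replicate 2 above them.

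**Figure D1:**
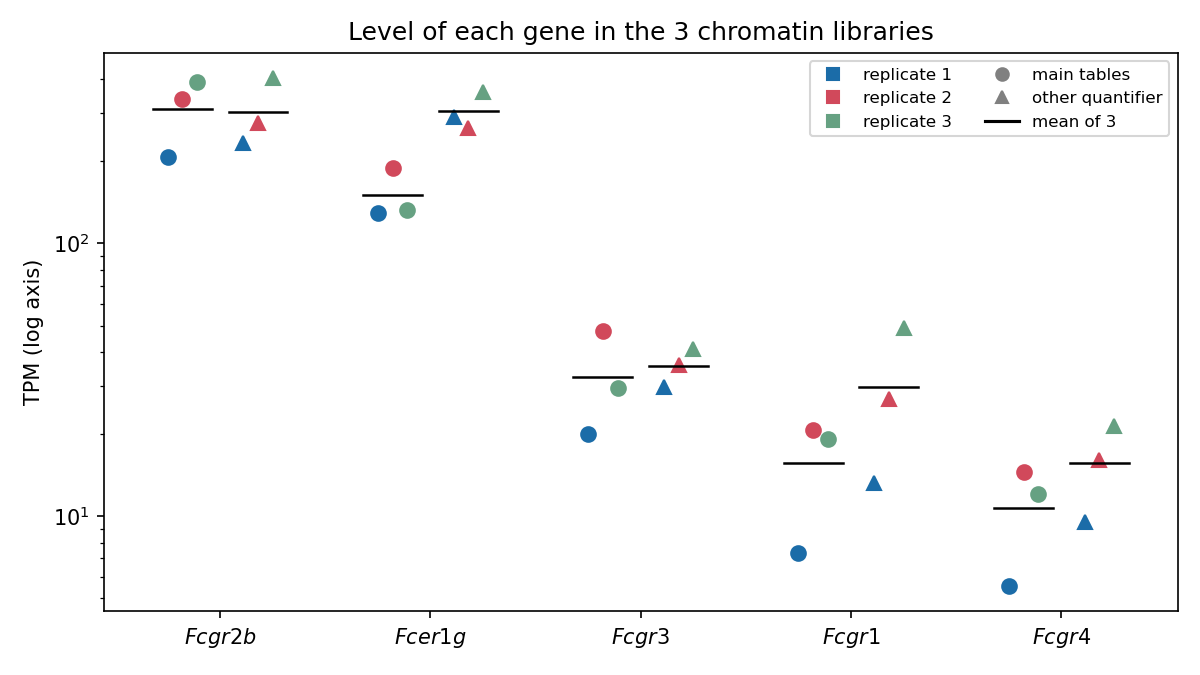
TPM (log axis) of each gene in the 3 libraries, from the main tables (circles) and from the other quantifier (triangles), with the mean of the 3 as a black line. In the main tables Fcgr2b lies above Fcer1g in each library, while with the other quantifier their means are 304 and 305 TPM.

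In the main tables the order of mean levels was Fcgr2b, Fcer1g, Fcgr3, Fcgr1 and Fcgr4, and it was the same in each of the 3 libraries. Fcgr2b was 2.03-fold above Fcer1g, and Fcer1g was 4.85-fold above Fcgr3, in each case with library ranges that did not overlap. Fcgr3 was 2.12-fold above Fcgr1 and Fcgr1 was 1.43-fold above Fcgr4 within libraries, but the library ranges of these neighbours overlapped. The other quantifier gave mean levels of 304 TPM for Fcgr2b, 305 for Fcer1g, 35.5 for Fcgr3, 29.7 for Fcgr1 and 15.6 for Fcgr4. With it, Fcer1g and Fcgr2b were level on average, with Fcer1g above Fcgr2b in replicate 1 and below it in replicates 2 and 3, and Fcer1g, Fcgr1 and Fcgr4 stood higher than in the main table. Fcgr1 also stood above Fcgr3 there in replicate 3, at 49.0 against 40.9 TPM, and below it in replicates 1 and 2.

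The 5 genes were contrasted within each library to ask how the inhibitory receptor compares with each activating one. On the log2(TPM + 0.1) scale Fcgr4 minus Fcgr2b was -5.19, -4.53 and -5.001 in replicates 1, 2 and 3, a mean difference of -4.91 ± 0.34 (SD, n = 3), which is the widest gap of the 3 receptors. Fcgr1 minus Fcgr2b was -4.81, -4.02 and -4.34, a mean difference of -4.39 ± 0.40, or 20.9-fold lower. Fcgr3 minus Fcgr2b was -3.37, -2.82 and -3.72, a mean difference of -3.30 ± 0.45, or 9.86-fold lower. The inhibitory receptor gene was thus higher than each activating one in 3 of 3 libraries, by differences several times the spread between them. Fcer1g minus the summed level of Fcgr1, Fcgr3 and Fcgr4, the receptors that use it, was 1.97, 1.19 and 1.13, a mean difference of 1.43 ± 0.47 and a 2.69-fold higher level of the chain. In an exact sign-flip test, two-sided, each of the 4 contrasts had p = 0.25, the smallest value possible with 3 libraries. Adjusted over the 4 by Benjamini-Hochberg it was 0.25. As read counts not divided by length, the contrast of Fcer1g with the 3 receptors was -0.39 on the log2 scale, with Fcer1g-201 at 674 nt and the coding isoform of Fcgr1 at 2589 nt.

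Only a small share of the Fcgr2b level was assigned to isoforms annotated as encoding the receptor. Its protein-coding isoforms held 13.3%, 18.0% and 11.7% of its TPM in replicates 1, 2 and 3, its retained-intron isoforms 49.3%, 44.7% and 52.5%, and a processed transcript, Fcgr2b-206, 37.4%, 37.3% and 35.8%. By expected counts, which do not favour short isoforms, the coding share was 23.5% ± 5.01 (SD, n = 3) and the retained-intron share 59.2% ± 5.11. The coding isoforms alone stood at 27.6, 60.6 and 45.5 TPM, a mean of 44.6 ± 16.5 TPM, in place of 311. The other quantifier gave a mean coding share of 13.5%. In RNA from chromatin, intron reads of unspliced transcripts and of these noncoding isoforms cannot be told apart, so the shares describe read assignment only. Fcgr1 and Fcgr4 have no isoform annotated as retaining an intron, so intron reads could add to the total of Fcgr2b but not to theirs.

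Restricting each gene to its coding isoforms, a choice made after seeing the data, narrowed the contrasts with the inhibitory receptor. Fcgr4, which has 1 isoform, was 4.23-fold lower than Fcgr2b, with log2 differences of -2.29, -2.05 and -1.90 in replicates 1, 2 and 3. Fcgr1 was 3.89-fold lower, with differences of -2.18, -2.06 and -1.64. Fcgr3 was 3.09-fold lower, with differences of -2.02, -0.71 and -2.15. Fcgr2b remained above each activating receptor gene in 3 of 3 libraries on this scale too, but Fcer1g, at 115 ± 41.5 TPM of coding isoforms, then stood above Fcgr2b in each library. The order among the activating receptor genes was not kept. In replicate 3 Fcgr3 (10.1 TPM) lay below Fcgr1 (14.5 TPM) and Fcgr4 (12.1 TPM), and in replicate 2 Fcgr4 (14.52 TPM) lay just above Fcgr1 (14.43 TPM).

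**Figure D2:**
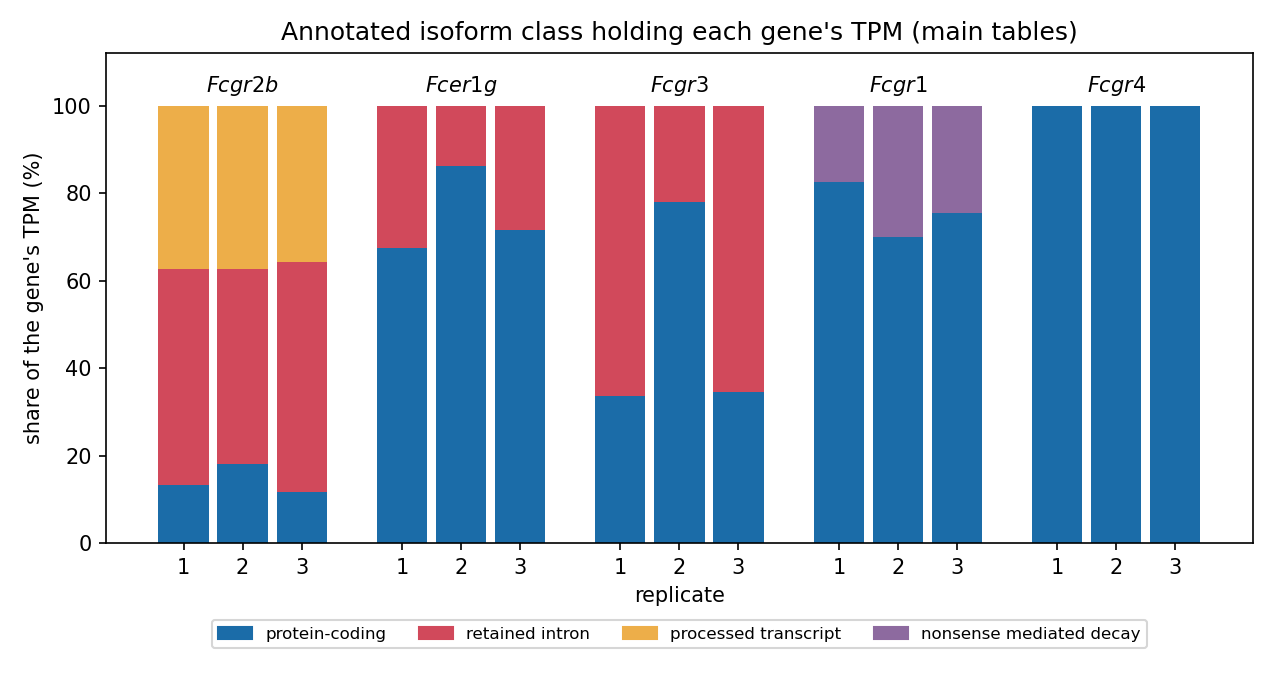
Share of each gene's TPM (%) held by each annotated isoform class in replicates 1, 2 and 3, from the main tables. Fcgr2b is mostly retained-intron and processed-transcript signal in each library, Fcgr3 and Fcer1g show their largest coding share in replicate 2, and Fcgr4 has a coding isoform only.

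The level of retained-intron isoforms was set against that of protein-coding isoforms for each gene that has both, as log2 of summed TPM + 0.1. Fcgr1 and Fcgr4 have no isoform annotated as retaining an intron, so 3 of the 5 could be tested. For Fcgr2b the log2 ratio was 1.88, 1.31 and 2.17 in replicates 1, 2 and 3, with a mean of 1.79 (SE 0.30), and limma gave a Benjamini-Hochberg adjusted p of 0.00533. Of 5602 genes tested, 19.4% were called in this direction (retained-intron isoforms higher) and the median ratio was -0.23; the ratio of Fcgr2b was above that of 91.1% of them. Genes called in this direction numbered 1088, 643 without replicate 1 and 2530 (35.9% of 7053 tested) with the other quantifier, where the ratio of Fcgr2b was 2.09. For Fcer1g it was -1.04, -2.63 and -1.33, a mean of -1.67 (SE 0.39) with an adjusted p of 0.0153 by limma, in the direction (coding isoforms higher) that took 29.8% of genes. With the other quantifier it was -0.93 and again called, beside 30.9% of genes tested. Without replicate 2 the ratio of Fcer1g was -1.19 and was no longer called (adjusted p 0.0679, limma). Each library still had the coding isoforms of Fcer1g above its retained-intron isoform. However, Fcer1g-203, annotated as coding, itself covers 74 nt of intron 3 of Fcer1g-201, or 10.8% of its length. Fcer1g-201 alone was also above the retained-intron isoform, Fcer1g-202, in each library of the main tables. With the other quantifier its mean was 76.2 TPM, below the 106 TPM of Fcer1g-202, so there the direction rests on counting Fcer1g-203 as coding.

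Fcgr3 split by library. Its log2 ratio was 0.97, -1.80 and 0.92 in replicates 1, 2 and 3, with a mean of 0.03 (SE 0.59) and an adjusted p of 0.971 by limma. Its coding isoforms stood at 6.73, 37.1 and 10.1 TPM, while its retained-intron isoform, Fcgr3-203, stood at 13.3, 10.55 and 19.3 TPM. So replicate 2 was the highest library in the coding isoforms and the lowest in the retained-intron one. In Fcer1g replicate 2 was likewise the highest library in the coding isoforms, at 86.8, 162.5 and 95.25 TPM, and the lowest in the retained-intron isoform, at 42.15, 26.1 and 37.8 TPM. With the other quantifier replicate 2 was again the lowest library in both retained-intron isoforms and the highest in the coding isoforms of Fcgr3. The coding isoforms of Fcer1g, however, were highest in replicate 3 there, at 179, 188 and 232 TPM in replicates 1, 2 and 3. In replicate 3 that quantifier also put the coding isoforms of Fcgr3 (21.8 TPM) above its retained-intron isoform (19.1 TPM). The main-table values of both genes moved with the Lyz2 and mt-Co1 levels of replicate 2 given above. The part of those levels in the result was not tested.

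How firmly isoforms can be told apart differed between genes. Fcgr2b-205 covered 1369 of the 2236 nt of intron 5 and ends within that intron. The intronic part is 60.8% of the isoform, and 1369 of its 2201 windows of 50 nt occurred in no other isoform of the gene. Fcgr2b-207 covered 214 of the 1239 nt of intron 2 and also ends within its intron. This isoform is 462 nt long and had 209, 198 and 284 expected counts in replicates 1, 2 and 3, so its TPM rests on few reads. Its mean was 46.5 TPM in the main tables and 89.8 TPM with the other quantifier, against 106 and 84.2 TPM for Fcgr2b-205. Fcgr2b-206 covered 397 of the 2091 nt of intron 6. Fcer1g-202 covered 126 of the 145 nt of intron 2. It is 361 nt long, a length within the labelled fragment range of 250 to 400 nt. It held a mean of 25.0% of the TPM of Fcer1g but 9.61% of its expected counts, so its TPM rests on few reads. Fcgr3-203 covered only 106 nt of intron 2, or 8.17% of its length, and its count of 340, 231 and 446 in replicates 1, 2 and 3 had posterior SDs of 24.4, 48.1 and 29.6 reads. Fcgr2b-205 had 3216, 4417 and 6423 expected counts with posterior SDs of 21.6, 25.1 and 22.4 reads. Among the annotated isoforms its reads were thus assigned with less doubt, relative to their number, than those of Fcgr3-203. This SD covers doubt among annotated isoforms only, so it cannot tell reads of unspliced transcripts from those of Fcgr2b-205.

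**Figure D3:**
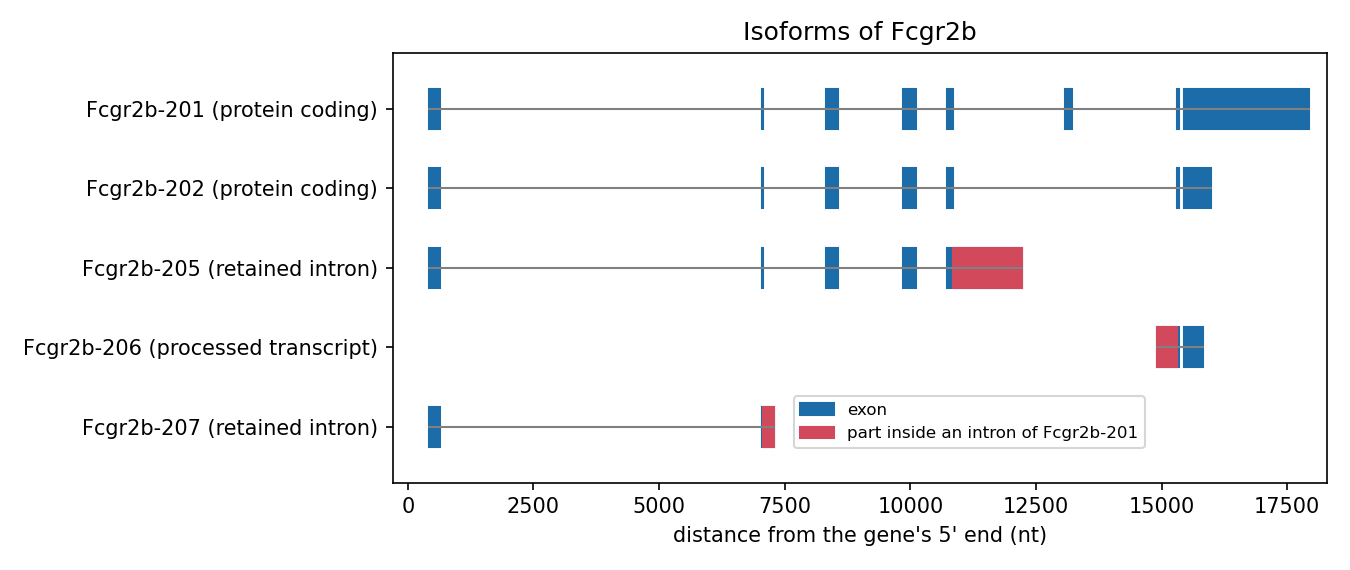
Exons of 5 Fcgr2b isoforms against the distance from the gene's 5′ end (nt), with the parts that lie inside introns of Fcgr2b-201 in red. The intronic parts fall at 3 places, in introns 2, 5 and 6, and the one in Fcgr2b-205 is the longest at 1369 nt.

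Within the coding isoforms, Fcgr2b comes in forms with and without an exon of the cytoplasmic tail. The form with it, known as b1, is the form of B cells and is kept from endocytosis, and the form without it, known as b2, is the form usually described in macrophages. The exon is 141 nt long and lies at chr1:170963325-170963465 (minus strand, mm10), and it is printed because it is the part that differs.
Fcgr2b tail exon: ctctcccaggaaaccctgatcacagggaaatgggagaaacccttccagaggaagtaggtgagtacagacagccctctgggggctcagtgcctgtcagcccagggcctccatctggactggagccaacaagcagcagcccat
Isoforms with this exon (Fcgr2b-201 and Fcgr2b-204) stood at 9.42, 21.8 and 17.6 TPM in replicates 1, 2 and 3, and Fcgr2b-202, without it, at 18.2, 38.8 and 27.8 TPM. The form without the exon thus held 65.9%, 64.0% and 61.2% of both, and was the higher one in 3 of 3 libraries. With the other quantifier it held 47.4%, 47.7% and 37.1% and was the lower one in 3 of 3 libraries. Reads were therefore assigned to both forms, but which held the higher level depended on the quantifier. Unspliced transcripts hold the tail exon too. Reads assigned to the form with this exon thus do not show that the spliced form was present. Of the 50-nt windows, 46 of 1413 in Fcgr2b-202 and 1941 of 3495 in Fcgr2b-201 occur in no other isoform of the gene. Those of Fcgr2b-201 reflect its longer 3′ end, not the tail exon, which Fcgr2b-204 also carries. Its last exon ends 17930 nt from the gene's 5′ end, against 15989 nt for Fcgr2b-202. How far the levels of the 2 forms rest on coverage of that 3′ end was not tested.

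Fcgr1 and Fcer1g also had more than 1 isoform. The coding isoform of Fcgr1 held 82.6%, 69.9% and 75.4% of its TPM in replicates 1, 2 and 3, and the rest was an isoform annotated as a target of nonsense-mediated decay. That rest was 24.0% ± 6.39 of TPM but 4.66% ± 1.32 of the expected counts of the gene (SD, n = 3), and 52.4% of TPM with the other quantifier. The isoform behind it is 600 nt long and the coding one 2589 nt, and expected counts are not divided by length. Of the coding isoforms of Fcer1g, Fcer1g-201 stood at 63.7, 148 and 67.7 TPM and Fcer1g-203 at 23.1, 14.5 and 27.5 TPM. With the other quantifier their means were 76.2 and 123 TPM, so their order turned.

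Differences between the 3 libraries were tested with expected counts scaled by TMM (trimmed-mean) library sizes, as CPM (counts scaled to a fixed library size). A chi-square test, which covers counting error only, called all 5 genes, beside 68.1% of 14200 genes tested. Fcgr1 stood at 19.9, 36.3 and 32.3 CPM in replicates 1, 2 and 3 (adjusted p 1.39e-19, chi-square with edgeR sizes) and Fcgr4 at 7.80, 14.7 and 11.1 CPM (6.84e-09). Fcgr2b stood at 329, 411 and 431 CPM (1.07e-61). In these 3 genes replicate 1 was the lowest library, with log2 differences from the mean of the other libraries of -0.78 for Fcgr1, -0.70 for Fcgr4 and -0.36 for Fcgr2b.

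Fcgr3 and Fcer1g followed another order. Fcgr3 stood at 29.4, 52.1 and 28.6 CPM (adjusted p 7.34e-44, chi-square with edgeR sizes), with replicate 2 higher by 0.84 on the log2 scale and replicates 1 and 3 alike. Without replicate 2 the call was lost (adjusted p 0.664). Fcer1g stood at 62.9, 71.8 and 41.6 CPM (adjusted p 9.60e-41), and replicate 3 departed most, by -0.69. Without replicate 3 this call was lost (adjusted p 0.0646). The order of libraries differs from that in TPM, a scale on which protein-coding genes held 17.9%, 23.7% and 24.3% of the total in replicates 1, 2 and 3.

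Replicate 2 was also where 10 mitochondrially encoded genes and 10 cytosolic ribosomal protein genes stood apart, with median departures of 3.17 and 1.48 on the log2 scale. For the 5 genes the departures of replicate 2 ran from 0.13 for Fcgr2b to 0.84 for Fcgr3, and how far both move together was not tested. The biological coefficient of variation fitted by edgeR was 0.23 for Fcgr2b, 0.26 for Fcer1g, 0.28 for Fcgr1, 0.29 for Fcgr3 and 0.31 for Fcgr4, beside a median of 0.31 over all genes tested. With the other quantifier, scaled in the same way, Fcgr2b stood at 324, 356 and 331 CPM and Fcgr3 at 40.5, 44.98 and 31.7 CPM, and all 5 genes were again called, beside 57.7% of 23319 genes tested. The departure of replicate 1 was then -0.09 for Fcgr2b in place of -0.36, and that of replicate 2 was 0.33 for Fcgr3 in place of 0.84. Fcgr1 and Fcgr4 were lowest in replicate 1 in both tables, and Fcer1g was lowest in replicate 3 in both. That table assigned more reads to each gene, from 1.35 times as many for Fcgr2b in replicate 1 to 4.23 times for Fcer1g in replicate 3, beside 1.54 to 1.76 times over all genes.

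**Figure D4:**
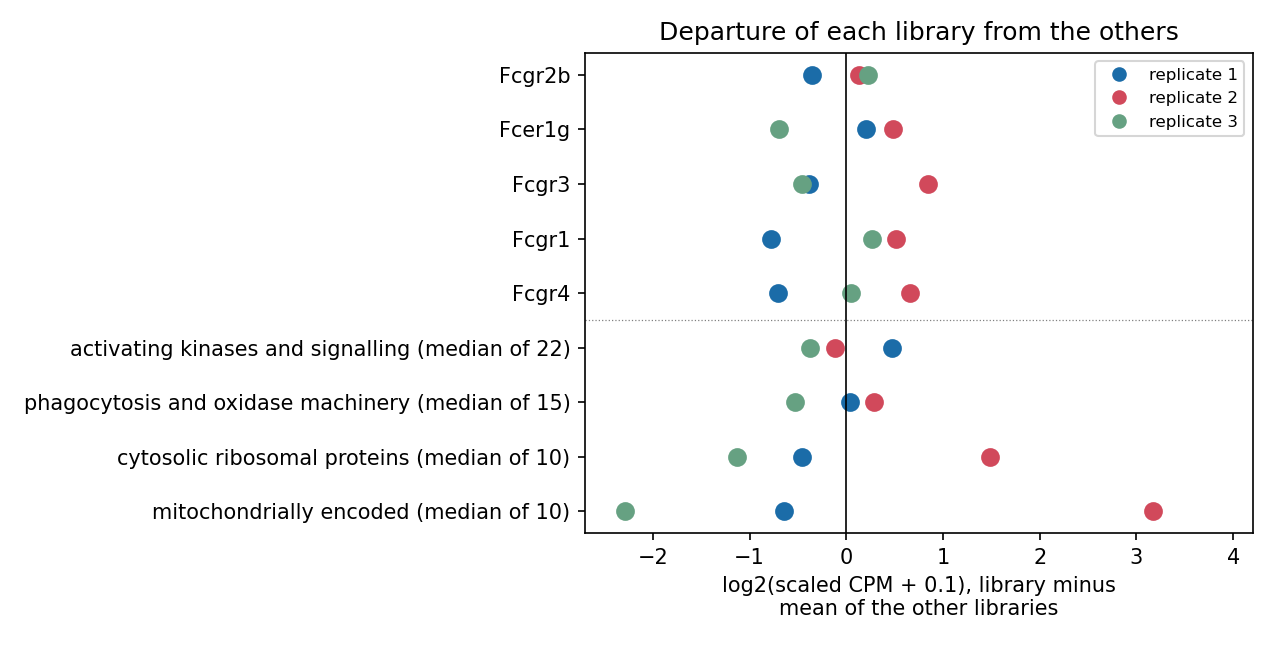
Departure of each library from the mean of the others, as a difference of log2(TMM-scaled CPM + 0.1), for the 5 genes (above the dotted line) and as the median of 4 gene lists (below it). Replicate 1 is low for Fcgr1, Fcgr4 and Fcgr2b. Replicate 2, which is far out for mitochondrially encoded genes, is the highest library for Fcgr1, Fcgr3, Fcgr4 and Fcer1g, and departs most for Fcgr3.

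On chromosome 1 the other 4 genes lie within 275749 nt. Fcgr4 lies 21413 nt from Fcgr3, on the opposite strand, and stood below it in each library. Gm26110, a small nuclear RNA gene of 165 nt inside Fcgr4 on the same strand, stood at 7.60, 35.4 and 36.1 TPM. Gm38204, an antisense gene that overlaps Fcgr2b by 3175 nt, stood at 0.16 TPM on average. Mir6546, a microRNA gene inside Fcgr3, was listed at 0 in the 3 libraries. Apoa2, an apolipoprotein gene next to Fcer1g, stood at 0.84 TPM on average. The strand setting of the counting is not given in the sources used here, so reads of overlapping genes on opposite strands cannot be told apart.

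The genes that act below these receptors were mostly present at higher levels than protein-coding genes in general, of which 41.5% had a mean of at least 1 TPM and whose median was 0.28 TPM. Of 22 genes listed for activating signalling, mostly kinases, adaptors and exchange factors, 21 reached 1 TPM, with a median of 34.6 TPM. The list also holds lipase genes and the ubiquitin ligase genes Cbl and Cblb, so not each of its genes drives activation. Vav3, a guanine nucleotide exchange factor, stood at 358 ± 22.5 TPM and Prkcd, a protein kinase C, at 283 ± 9.13 TPM, while the Src-family kinase gene Fgr was the lowest at 0.79 ± 0.38 TPM (SD, n = 3). Of 12 of these genes with both isoform classes, 2 were called with retained-intron isoforms higher and 4, Cbl and Cblb among them, with coding isoforms higher by limma. All genes tested gave 19.4% and 29.8%, which are near the shares of the list.

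In a list of mostly phosphatase and adaptor genes, 10 of 10 reached 1 TPM, with a median of 11.1 TPM. The list was drawn up for inhibitory signalling, but being in it does not show that a gene, Ptprc among them, only inhibits. Ptprc, the CD45 phosphatase, stood at 365 ± 121 TPM and Inppl1, a lipid phosphatase, at 54.0 ± 10.7 TPM, and the adaptor gene Dok3 was lowest at 1.88 ± 0.58 TPM. Inpp5d, the phosphatase gene named above as the partner of the Fcgr2b receptor and given here for that reason, stood at 7.63, 9.97 and 6.47 TPM, far below the 207 to 390 TPM of Fcgr2b in total and also below the 27.6 to 60.6 TPM of its coding isoforms. Of 9 of these genes tested for isoforms, 2 were called in each direction, again beside 19.4% and 29.8% of all genes tested.

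All 15 genes of phagocytosis and of the oxidase that makes superoxide reached 1 TPM, with a median of 44.0 TPM. Cybb, the catalytic oxidase subunit, stood at 239 ± 47.7 TPM and Dock2, an exchange factor for Rac, at 157 ± 21.02 TPM, with Was, an actin regulator, lowest at 3.76 ± 0.99 TPM. Among 8 of them tested for isoforms, none was called with retained-intron isoforms higher and 4 with coding isoforms higher by limma, beside the same 19.4% and 29.8%. With so few genes this is a description of the list only.

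A further list held adaptors with an activation motif and immune receptors, most of which pair with Fcer1g or a like adaptor, and 8 of its 17 matched genes reached 1 TPM. Pirb, which is counted among the 8 beside its activating relative Pira2 but encodes a receptor with inhibitory motifs of its own, stood at 273 ± 27.0 TPM and Clec4d, a C-type lectin that pairs with the Fcer1g chain, at 73.9 ± 36.1 TPM. The median over the 17 was 0.38 TPM, and Cd3e, Cd3g and Oscar were at 0. Of 13 other immunoglobulin and Fc-like receptor genes 5 reached 1 TPM, beside 41.5% of all protein-coding genes, and the median was 0.18 TPM. Trim21, the cytosolic antibody receptor, stood at 102.7, 123 and 195 TPM, and Fcgrt, the neonatal Fc receptor, at 2.94, 10.4 and 0.90 TPM, highest in replicate 2.

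The protein-coding genes with the most similar levels over the 3 libraries were listed by Euclidean distance in log2(TPM + 0.1), which over 3 libraries is a description only. Nearest to Fcgr2b were Znrf1 and Cd40, at distances of 0.31 and 0.32, with Cd40 at 251, 327 and 349 TPM. For Fcer1g they were Plxnd1 and Acod1, at 0.22 and 0.26, for Fcgr3 Atp1b3 and Atp6ap1, at 0.03 and 0.18, for Fcgr1 Hnrnph2 and Ubap1, at 0.09 and 0.16, and for Fcgr4 9530068E07Rik and Dgat1, at 0.11 and 0.13.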

How the data were processed

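The authors deposited, per the file headers and the notes with the files, gene and transcript tables of expected counts and TPM from alignments to the mm10 transcriptome (GENCODE M21), in the column layout of RSEM. A further deposited transcript table of estimated counts and TPM was made directly from reads, in the layout of kallisto. For these tables the aligner, quantifiers, versions, trimming and use of strand were not given in the sources used here. Symbols and coordinates came from GENCODE M21. Entries without an annotated gene (0.845%, 0.282% and 0.179% of expected counts in replicates 1, 2 and 3) were left out.

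Expected counts were rounded. Libraries were compared by a chi-square test with TMM factors (edgeR 4.0.16) in 14200 genes whose mean count was 10 or more. Isoform ratios were tested with limma 3.58.1 in 5602 genes whose mean count was 50 or more. P-values were Benjamini-Hochberg adjusted over all genes tested, with a threshold of 0.05. Contrasts within libraries used exact sign-flip tests and a pseudocount of 0.1. Both fits were also run on simulated data, with counting error only for libraries and normal error of equal spread for isoform ratios. These settings are simpler than the data, so they do not check the calls made here. Alternatives were DESeq2 1.42.0 size factors, other filters, pseudocounts, isoform classes and scalings, the other quantifier and leaving out each library. The genes, lists and tests were chosen with earlier results of these data known. Named list genes are the 2 highest and the lowest of a list. Others named, among them Inpp5d and the macrophage markers, were chosen for their role or after their values were seen.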

Additional observations from a re-analysis of the deposited data

How the results depend on the processing

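Mean levels moved with the scale. Rescaled to a fixed total over protein-coding genes, Fcgr1 stood at 68.9, Fcgr2b at 1393, Fcgr3 at 145, Fcgr4 at 47.3 and Fcer1g at 687 TPM. With the other quantifier Fcgr1 (29.7 TPM), Fcgr4 (15.6) and Fcer1g (305) moved. Over coding isoforms alone, chosen after seeing the data, Fcgr2b (44.6), Fcgr3 (18.0) and Fcer1g (115) did. The contrast of Fcer1g with Fcgr1, Fcgr3 and Fcgr4 summed turned to -0.39 in log2 when counts were not divided by length. The isoform ratio of Fcgr3 turned to -0.14 with the other quantifier and ran from -0.44 (without replicate 1) through -0.42 (without replicate 3) to 0.95 (without replicate 2), never past the threshold. Genes with retained-intron isoforms higher numbered 2530 with the other quantifier and 643 to 949 leaving out each library, against 1088, and those with coding isoforms higher 2182 and 943 to 1830, against 1672, so that with the other quantifier the retained-intron direction was the more frequent one. The cause was not tested. No paired analysis was possible because the labels give a single group, so replicate numbers pair no groups. The 137 expected counts of Fcgr4 in replicate 1 are the shallowest value.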
